A study of Mus musculus with 6 samples.

Results

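Homologous recombination and Fanconi repair genes were followed in cultures of mouse muscle stem cells, or satellite cells, labelled as knockout or wild type for Pnpla2, the gene of adipose triglyceride lipase. The 38 genes were chosen by symbol for their roles in these pathways, and all 38 are among the 20588 genes of the deposited count table. There were 3 libraries of the genotype Pnpla2PKO (PKO 1, PKO 2 and PKO 3) and 3 wild-type libraries (WT 1, WT 2 and WT 3). Both genotypes were of the strain C57BL/6NJ at an age of 2 months, and their satellite cells came by flow sorting out of the hind limbs. The cells spent 7 days in growth medium and a further 16 h in DMEM containing horse serum at 2%, a low-serum step that lets myoblasts leave the cell cycle and differentiate. The labels name neither the promoter or recombinase behind the deletion nor the deleted part of the gene. Nor do they tell whether the 3 libraries of a genotype stand for different mice, so a p-value reflects only how much these libraries vary, and that variation may be technical. Polyadenylated RNA was sequenced, and the values start from read counts per gene. Values of a group are given in the order of its library numbers.

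Homologous recombination repairs breaks through both DNA strands by copying an intact sister chromatid, so it works in cells that have begun to replicate their DNA. Nucleases first trim the broken ends, BRCA1, BRCA2 and their partners then prepare the exposed strand for pairing with the sister, and helicases and nucleases separate the joined molecules afterwards. The Fanconi pathway handles crosslinks between the strands at stalled forks and feeds into the same machinery. Many of these genes are transcribed mainly in proliferating cells, as targets of the E2F transcription factors, and are low in myoblasts that have withdrawn from the cycle.

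Because transcription of many of these genes is tied to proliferation, the letters of E2F-type sites were looked for in the promoters. RefSeq (GRCm38.p6) windows from 250 bases before to 50 bases from the transcript start were at hand for 29 of the 38 genes. An exact match on either strand to TTTCCCGC, TTTGGCGC, TTCCCGCC or TTTGGCGG, of which TTTCCCGC and TTCCCGCC overlap each other by all but a letter, was present for 10 of the 29, against 7.7% of the 10081 tested genes with a window. The letters CCAAT occurred for 18 of 29 genes, against 42.5% of tested genes, and TTTGAA or TTCGAA, letters of the kind found in cell cycle homology regions, for 4 of 29, against 15.9%. The median GC content was 58.0% in the windows of these genes and 60.7% in those of tested genes. A match is a run of letters and not a shown binding site. The windows below are given as the strand of the gene, 5′ to 3′, with E2F-type matches in capitals. The first 4 hold a match and belong to genes at least 2-fold higher in WT 2 and WT 3, the libraries with the highest cycling level, than in WT 1. Brca1 had such a difference and holds no match, Rad51c holds a match (in the second of its 2 windows) without such a difference, and Mus81 has neither.
Chek1, chr9:36726609-36726908, minus strand: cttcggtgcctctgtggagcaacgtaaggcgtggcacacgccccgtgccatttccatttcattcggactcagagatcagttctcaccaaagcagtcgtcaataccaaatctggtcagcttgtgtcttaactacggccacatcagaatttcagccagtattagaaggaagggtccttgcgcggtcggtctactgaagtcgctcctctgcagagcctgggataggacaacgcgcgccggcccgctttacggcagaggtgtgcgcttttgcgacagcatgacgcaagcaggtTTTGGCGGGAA
Bard1, chr1:71102923-71103222, minus strand: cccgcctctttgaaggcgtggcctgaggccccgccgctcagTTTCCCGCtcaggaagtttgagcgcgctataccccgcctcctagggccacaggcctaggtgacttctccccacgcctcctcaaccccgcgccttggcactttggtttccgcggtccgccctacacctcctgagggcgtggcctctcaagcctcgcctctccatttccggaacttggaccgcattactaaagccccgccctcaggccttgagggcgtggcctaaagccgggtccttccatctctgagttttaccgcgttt
Brca2, chr5:150522371-150522670, plus strand: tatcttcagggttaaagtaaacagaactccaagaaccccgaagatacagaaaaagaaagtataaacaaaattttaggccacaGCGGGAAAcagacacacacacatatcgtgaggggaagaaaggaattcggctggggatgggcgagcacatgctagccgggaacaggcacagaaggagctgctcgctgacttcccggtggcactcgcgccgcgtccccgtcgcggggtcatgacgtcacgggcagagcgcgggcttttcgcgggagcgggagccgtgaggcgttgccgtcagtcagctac
Rad51ap1, chr6:126939538-126939837, minus strand: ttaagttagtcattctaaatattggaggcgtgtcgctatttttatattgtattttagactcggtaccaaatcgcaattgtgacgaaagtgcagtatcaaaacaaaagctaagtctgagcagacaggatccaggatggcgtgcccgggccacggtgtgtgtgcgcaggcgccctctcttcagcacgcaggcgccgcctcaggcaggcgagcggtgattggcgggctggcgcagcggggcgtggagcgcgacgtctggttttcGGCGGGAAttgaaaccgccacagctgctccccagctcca
Brca1, chr11:101551906-101552205, minus strand: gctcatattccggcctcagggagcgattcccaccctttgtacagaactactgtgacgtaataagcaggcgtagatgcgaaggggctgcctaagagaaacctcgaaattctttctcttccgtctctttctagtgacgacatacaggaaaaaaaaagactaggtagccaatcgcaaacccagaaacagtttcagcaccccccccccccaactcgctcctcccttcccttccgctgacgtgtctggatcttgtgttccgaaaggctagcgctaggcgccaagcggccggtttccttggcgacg
Rad51c, chr11:87404905-87405204, minus strand: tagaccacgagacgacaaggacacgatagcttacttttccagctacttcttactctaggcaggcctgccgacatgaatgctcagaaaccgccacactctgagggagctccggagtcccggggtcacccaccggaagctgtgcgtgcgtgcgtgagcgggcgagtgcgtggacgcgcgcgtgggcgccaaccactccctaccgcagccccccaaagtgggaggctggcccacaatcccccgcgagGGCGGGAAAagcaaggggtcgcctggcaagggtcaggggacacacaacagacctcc
Mus81, chr19:5488330-5488629, minus strand: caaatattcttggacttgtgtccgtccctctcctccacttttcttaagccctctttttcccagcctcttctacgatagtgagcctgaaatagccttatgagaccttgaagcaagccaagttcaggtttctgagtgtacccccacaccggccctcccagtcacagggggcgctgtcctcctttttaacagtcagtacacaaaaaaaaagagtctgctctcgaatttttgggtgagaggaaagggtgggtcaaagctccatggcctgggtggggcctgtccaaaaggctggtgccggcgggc

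Total counts ran from 17237752 to 18839151 in the PKO libraries and from 15580176 to 18651348 in the WT libraries. Pnpla2 was at 8.47, 16.0 and 15.5 CPM (counts scaled to library size) in PKO 1 to PKO 3, against 21.15, 38.5 and 33.7 CPM in the WT libraries, below every WT library in every PKO library (edgeR adjusted p = 0.19, DESeq2 adjusted p = 0.00939). All 10 myogenic markers were detected, with a summed level of 12114 to 16980 CPM in PKO and 17535 to 20122 CPM in WT. The summed level of 12 stromal markers was 795 to 2918 CPM in PKO and 513 to 672 CPM in WT. Col3a1 was the most abundant of them in every WT library and in PKO 1, and Col1a1 in PKO 2, at 859 CPM. The median over the 10 stromal markers tested lay 4.17 and 4.22 log2 units above the WT mean in PKO 2 and PKO 3 but 0.71 above it in PKO 1. The stromal marker Dpt had no count in any WT library. Summed levels were 10.7 to 15.3 CPM in PKO and 5.63 to 5.91 CPM in WT for 5 leukocyte markers, and 6.88 to 12.7 CPM in PKO and 2.54 to 4.39 CPM in WT for 5 endothelial markers. They were 292 to 372 CPM in PKO and 327 to 344 CPM in WT for 5 pericyte markers, and 3.04 to 7.03 CPM in PKO and 1.48 to 6.24 CPM in WT for 5 Schwann cell markers.

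The cycling level of a library was read from 50 other genes, 25 of DNA replication (such as Mcm2 and Pcna) and 25 of mitosis (such as Mki67 and Plk1), as the median of log2 CPM relative to the mean of the 6 libraries. This index took the values -0.515, -0.527 and -0.179 over the PKO libraries, against -0.914, 1.116 and 1.109 over the WT libraries. WT 1 therefore stood apart from its own group, with the lowest index of the 6 libraries. Expressed as a fold of CPM, the index difference from WT 1 was 4.08-fold for WT 2 and 4.06-fold for WT 3. The 25 replication genes and the 25 mitosis genes each gave the same 2 highest libraries, WT 2 and WT 3, and the same lowest, WT 1. Since the libraries fall into separate clusters of cycling level, no correlation over the 6 was computed. Each gene is described instead by its rank order and by its step, the log2 CPM of WT 2 and of WT 3 minus that of WT 1, which compares libraries of 1 genotype. In bulk RNA, fewer cycling cells and less of a transcript per cell cannot be told apart.

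Most of the repair genes shared their 2 highest libraries with the cycling index, with steps of very different size. Of the 38 genes, 37 passed the filter on low counts; Rad51b did not (2, 6 and 1 counts in the PKO libraries, against 1, 7 and 7 counts in the WT libraries). In 31 of the 37, WT 2 and WT 3 were the 2 highest libraries, as in the index, against 20.4% of all 14025 genes tested. WT 1, the lowest library of the index, was the lowest in 15 of the 37, against 16.7% of all genes. PKO 3, the PKO library with the highest index, was the highest PKO library in 11 of the 37 and the lowest in 13. Both WT 2 and WT 3 were at least 2-fold above WT 1 in 18 of the 37, against 4.71% of all genes tested. The median step of the 37 genes was 1.01 to WT 2 and 0.93 to WT 3, where the index had 2.03 and 2.02 and all genes tested had -0.014 and -0.012. Another 13 genes had WT 2 and WT 3 highest with a smaller step, and 6 genes had other highest libraries: Top3a, Fance, Fancf, Mus81, Slx4 and Atm. The 2-fold limit falls within a continuous range: Fancb (steps of 1.00 and 1.46) and Rad51ap1 (1.20 and 1.17) were just inside it, and Fancl (1.01 and 0.93) and Palb2 (1.26 and 0.855) just outside.

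**Figure D1:**
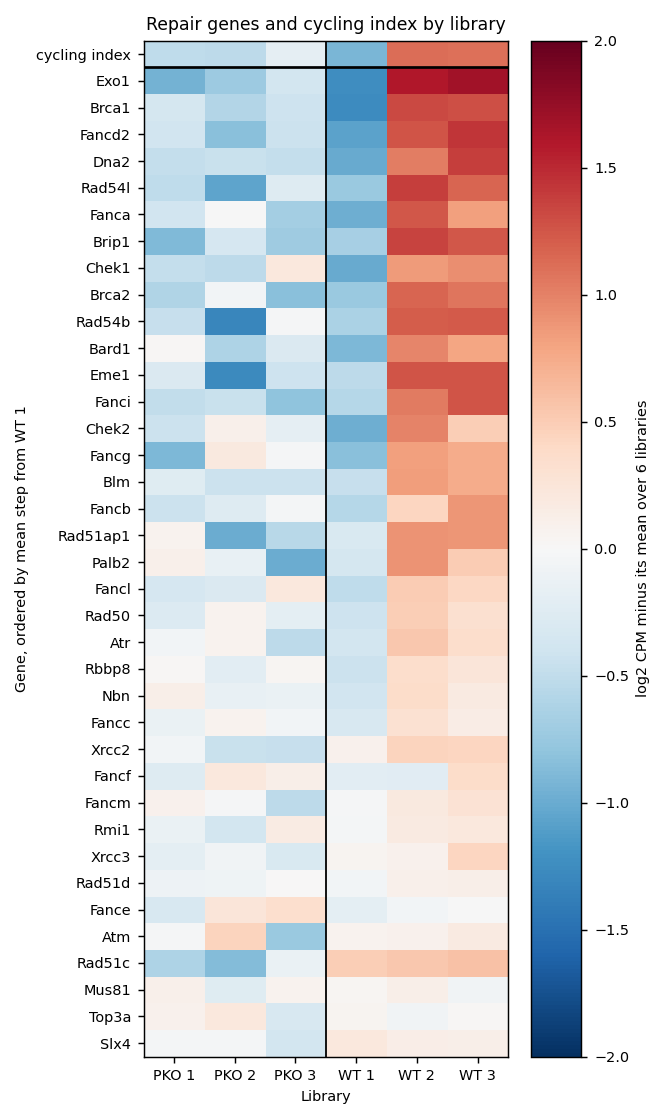
Log2 CPM of the 37 tested repair genes in each library (colour, relative to the mean over the 6 libraries), with the cycling index of 50 other genes on top and genes ordered by their mean step from WT 1. WT 2 and WT 3 are the highest libraries in 31 of the 37 genes, and the contrast fades towards the lowest rows, from Exo1 down to Slx4.

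Levels per length differed between the 18 genes with 2-fold steps and the rest. In the authors' deposited FPKM, a level per transcript length and depth, averaged over the 6 libraries, the 18 genes ran from 0.665 to 4.37 with a median of 1.36, and the other 19 from 0.507 to 12.7 with a median of 3.48. Mus81 had the highest level of all 38 genes, at 12.7 ± 1.62 FPKM in PKO and 12.6 ± 0.81 FPKM in WT, and Xrcc3 was next, at 8.85 ± 0.68 FPKM in PKO and 11.2 ± 1.66 FPKM in WT (SD, n = 3 each). Brca2 was at 0.503 ± 0.148 FPKM in PKO and 1.11 ± 0.62 FPKM in WT, and Rad51b was lowest, at 0.096 ± 0.089 FPKM in PKO and 0.167 ± 0.118 FPKM in WT.

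**Figure D2:**
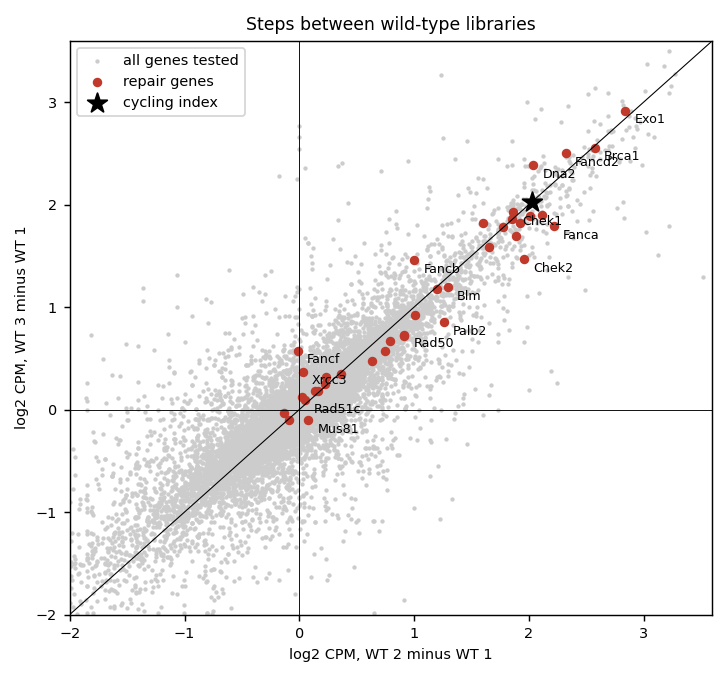
Log2 CPM of WT 2 minus WT 1 (x axis) and of WT 3 minus WT 1 (y axis) for the repair genes (red), all genes tested (grey) and the cycling index (star), with the line of equal steps; genes beyond the axis limits are not drawn. Repair genes spread along this line from a group near 0 that includes Mus81 to Exo1 at 2.84 and 2.92, beyond the index at 2.03 and 2.02.

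No repair gene passed an adjusted p of 0.05 between the genotypes in edgeR's quasi-likelihood test over all 14025 genes, in which no gene passed at all (0.0% called). DESeq2 called 0 of the 37 as well, against 1.12% of genes called lower and 4.76% called higher, and limma-voom called 0. The smallest edgeR adjusted p among these genes was 0.203, that of Rad51c. At an unadjusted p under 0.05 edgeR had 13 of the 37 genes lower in PKO and 0 higher, against 6.35% of all genes lower and 10.2% higher. The fold change was below 0 in 34 of the 37, against 51.7% of all genes, with a median log2 fold change of -0.62, against -0.015 for all genes tested. The authors' deposited table listed 2 of the 37 as lower and 0 as higher, where it called 1.0% of genes lower and 4.65% higher. In the authors' deposited table these were Brip1 (log2 fold change -1.16, adjusted p = 0.0455) and Exo1 (log2 fold change -1.24, adjusted p = 0.0488).

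The calls depended on WT 1. Without WT 1, edgeR called 13 of the 37 lower and 0 higher at an adjusted p under 0.05, where it called 3.32% of all genes lower and 3.55% higher. All 13 were among the 18 genes with a step of at least 2-fold: Exo1, Dna2, Blm, Brca1, Bard1, Brca2, Rad54l, Rad54b, Fanca, Fancd2, Fanci, Brip1 and Eme1. This rests on the same WT 2 and WT 3 values as the steps and is no second line of evidence. With each of the other 5 libraries left out in turn, 0 of the 37 were called. Over all genes 0.538% were then called lower and 4.54% higher without PKO 1, and 0.0% in either direction without PKO 2, PKO 3, WT 2 or WT 3.

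With the cycling index as a numeric covariate beside genotype, the median fold change of these genes was nearer to 0. The median log2 fold change of the 37 genes was then -0.057, 23 of them were below 0, and 0 were called. The sign differed from that with genotype alone in 13 of the 37. At an unadjusted p under 0.05 there was 1 lower (Rad51c) and 0 higher, against 4.19% of all genes lower and 8.63% higher. For the 18 genes with large steps the median was -0.115, where it had been -1.23 with genotype alone. For the other 19 genes it was -0.042, where it had been -0.22. The 18 genes were chosen by WT 2 and WT 3 against WT 1, a contrast that the index also carries. Their move towards 0 therefore follows at least in part from that choice and is no separate evidence. Index and genotype overlap in part, since the 2 libraries with the highest index are both WT, and the fit leaves 3 residual degrees of freedom.

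**Figure D3:**
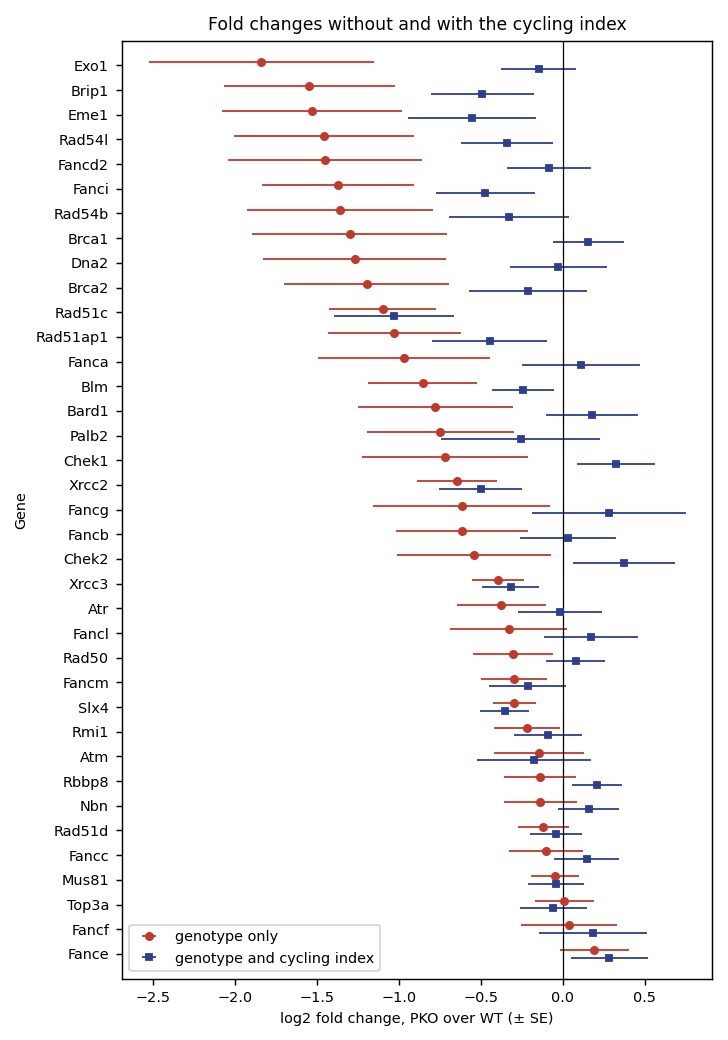
Log2 fold change, PKO over WT, with its SE (x axis) for each tested repair gene, from edgeR with genotype as the only term (red circles) and with the cycling index added (blue squares). The value of Exo1 is -1.84 with genotype alone and -0.15 with the index, while that of Rad51c is -1.10 and -1.03.

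The genes of end resection and dissolution ranged from the largest step of all to none. Exo1, the exonuclease that digests long stretches from a broken end, was at 2.56, 3.02 and 3.90 CPM in the PKO libraries, against 2.07, 15.5 and 16.4 CPM in the WT libraries. It had the largest steps of all these genes, 2.84 and 2.92, and WT 1 lay below each PKO library. Its log2 fold change was -1.84 ± 0.69 (SE, edgeR adjusted p = 0.269). Dna2, the helicase and nuclease that resects beside EXO1, was at 3.14, 3.19 and 3.13 CPM in PKO, against 2.13, 9.10 and 11.6 CPM in WT (log2 fold change -1.27 ± 0.56, edgeR adjusted p = 0.315). Blm, the Bloom syndrome helicase that unwinds the end and later dissolves joined molecules, was at 10.9, 9.62 and 9.60 CPM in PKO, against 9.45, 23.3 and 21.8 CPM in WT. WT 1 was the lowest library in 6 of the 8 genes of this group: these 3, Rad50, Nbn and Rbbp8. The partners that start resection had smaller steps: those of Rad50 were 0.92 and 0.73, those of Nbn 0.74 and 0.57, and those of Rbbp8, whose product CtIP starts the cut, 0.79 and 0.67. Their log2 fold changes were -0.30 ± 0.24 for Rad50, -0.14 ± 0.22 for Nbn and -0.14 ± 0.22 for Rbbp8. The BLM partners showed little step: Rmi1 had 0.22 and 0.25, and the topoisomerase gene Top3a was at 18.1, 19.9 and 13.7 CPM in PKO, against 17.8, 16.2 and 17.3 CPM in WT, with overlapping groups.

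The genes Brca1, Brca2, Bard1 and Palb2, whose products act on the resected strand, all had WT 2 and WT 3 highest. Brca1 was at 8.05, 6.89 and 7.70 CPM in the PKO libraries, against 4.25, 25.9 and 25.6 CPM in the WT libraries. The 3 PKO libraries lay within a narrow range that was above WT 1 and far below WT 2 and WT 3 (log2 fold change -1.30 ± 0.59, edgeR adjusted p = 0.327). Bard1, whose product is the obligate partner of BRCA1, had the same order, at 8.31, 5.29 and 6.67 CPM in PKO and 4.31, 16.2 and 14.2 CPM in WT. Brca2 was at 4.80, 7.06 and 4.05 CPM in PKO, against 4.31, 16.6 and 15.5 CPM in WT (-1.20 ± 0.50, edgeR adjusted p = 0.299). Palb2, the bridge between BRCA1 and BRCA2, had lower levels and a smaller step, at 2.88, 2.39 and 1.28 CPM in PKO and 2.07, 5.11 and 3.83 CPM in WT. With the index in the fit the log2 fold change was 0.16 for Brca1, 0.18 for Bard1, -0.21 for Brca2 and -0.26 for Palb2.

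**Figure D4:**
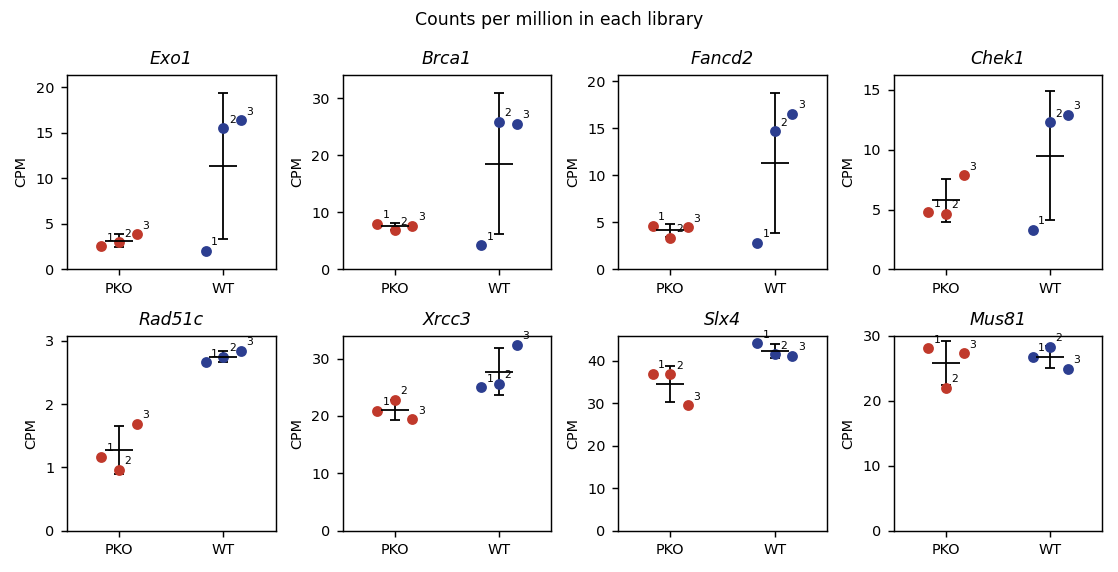
CPM in each library (points, numbered by replicate) with the mean and SD of each genotype (bars, n = 3 each) for 8 repair genes. In the upper row WT 1 lies with or below the PKO libraries, while in Rad51c, Xrcc3 and Slx4 all 3 WT libraries lie above all 3 PKO libraries.

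The genes Rad51c, Rad51d, Xrcc2 and Xrcc3, whose products form complexes that assist strand exchange, had WT 2 and WT 3 as their highest libraries but only small steps. Rad51c, whose product is shared by both of these complexes, was at 1.17, 0.97 and 1.69 CPM in the PKO libraries, against 2.66, 2.75 and 2.85 CPM in the WT libraries, from 17 to 33 counts per PKO library and 42 to 52 per WT library. The groups did not overlap, WT 1 lay with the other WT libraries, and the steps were only 0.047 and 0.095. Its log2 fold change was -1.10 ± 0.33 (edgeR adjusted p = 0.203, DESeq2 adjusted p = 0.108), and -1.03 ± 0.37 with the index (adjusted p = 0.359). Xrcc2 was at 5.49, 4.15 and 4.11 CPM in PKO, against 6.02, 7.79 and 7.72 CPM in WT (-0.65 ± 0.24, edgeR adjusted p = 0.269). Xrcc3, whose product pairs with RAD51C, was at 20.9, 22.8 and 19.4 CPM in PKO, against 25.0, 25.6 and 32.4 CPM in WT (-0.40 ± 0.16, edgeR adjusted p = 0.282). Rad51d differed little, at 11.5, 11.7 and 12.4 CPM in PKO and 11.9, 13.3 and 13.5 CPM in WT, and its groups overlapped. Every PKO library was below every WT library in 4 of the 37 genes (Rad51c, Xrcc2, Xrcc3 and the nuclease scaffold gene Slx4), which is close to the 9.7% of all genes tested with that order. In 0 of the 37 was every PKO library above every WT library, against 11.8% of all genes.

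The genes Rad54l, Rad54b and Rad51ap1 had steps of at least 2-fold. Rad54l, a motor protein that helps to open the DNA to be copied, was at 3.20, 2.16 and 3.85 CPM in the PKO libraries, against 2.72, 12.2 and 10.5 CPM in the WT libraries. Its relative Rad54b was at 2.56, 1.37 and 3.49 CPM in PKO, against 2.24, 8.38 and 8.43 CPM in WT. Rad51ap1, whose product stimulates strand invasion, was at 9.22, 4.32 and 5.90 CPM in PKO, against 7.09, 16.4 and 16.1 CPM in WT. PKO 2 was the lowest library in all 3 genes. Their edgeR adjusted p-values were 0.269, 0.296 and 0.282. Of exon bases in GENCODE M21, 15.4% in Rad54l are shared with Lrrc41 on the other strand and 35.8% in Rad54b with Fsbp on the same strand, and the strand setting of the counting is not given in the sources used here.

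In the Fanconi pathway all 3 genes of the substrates and the helicase had 2-fold steps, against 3 of the 8 genes of the core complex. Fancd2, which is ubiquitinated at stalled forks, was at 4.64, 3.36 and 4.46 CPM in the PKO libraries, against 2.84, 14.7 and 16.6 CPM in the WT libraries (-1.45 ± 0.59, edgeR adjusted p = 0.289). Its partner Fanci was at 3.68, 3.81 and 2.93 CPM in PKO, against 3.48, 10.8 and 12.6 CPM in WT. Fanci shares 16.0% of its exon bases with Polg on the other strand. Brip1, a helicase that binds BRCA1, was at 2.40, 3.59 and 2.72 CPM in PKO, against 2.84, 11.8 and 10.8 CPM in WT (-1.55 ± 0.52, edgeR adjusted p = 0.237, DESeq2 adjusted p = 0.0582), with WT 1 inside the PKO range.

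Among the 8 genes of the Fanconi core, 6 had WT 2 and WT 3 highest, with a median log2 fold change of -0.31. Fanca had the largest steps, 2.22 and 1.79, at 6.45, 8.48 and 5.23 CPM in PKO and 4.25, 20.2 and 14.99 CPM in WT. It shares 10.5% of its exon bases with Zfp276 on the other strand. Fancg had steps of 1.65 and 1.59 at a low level, from 0.906 to 2.05 CPM in PKO and from 0.945 to 3.21 CPM in WT. Fancl, the catalytic subunit, and Fancb had steps of 1.01 and 0.93, and of 1.00 and 1.46. Fancc (0.63 and 0.47) and the fork-remodelling helicase gene Fancm (0.23 and 0.32) had smaller ones. Fance was at 11.8, 17.4 and 18.7 CPM in PKO, against 12.9, 14.2 and 14.7 CPM in WT, and was the gene with the highest fold change of the 37 (log2 0.19 ± 0.21, edgeR adjusted p = 0.658). Fancf was at 3.20, 4.50 and 4.21 CPM in PKO, against 3.31, 3.27 and 4.98 CPM in WT, with overlapping groups.

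Among the nuclease genes Eme1 had WT 2 and WT 3 highest and Mus81 and Slx4 did not. Eme1 was at 2.03, 0.967 and 1.85 CPM in the PKO libraries, against 1.71, 6.16 and 6.18 CPM in the WT libraries, with steps of 1.78 and 1.79 (log2 fold change -1.53 ± 0.55, edgeR adjusted p = 0.256). Eme1 shares 8.0% of its exon bases with Lrrc59 on the other strand. Mus81, which encodes the catalytic partner of EME1, was at 28.1, 22.0 and 27.4 CPM in PKO, against 26.8, 28.4 and 25.0 CPM in WT (-0.047 ± 0.148). The steps of Mus81 were 0.080 and -0.10. Slx4 was at 36.9, 36.8 and 29.6 CPM in PKO, against 44.1, 41.5 and 41.2 CPM in WT, so WT 1, the library with the lowest cycling index, had its highest level (-0.29 ± 0.13, edgeR adjusted p = 0.319).

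Both effector kinase genes had 2-fold steps, and neither sensor kinase gene did. Chek1, the effector kinase of stalled replication, was at 4.80, 4.67 and 7.85 CPM in the PKO libraries, against 3.31, 12.3 and 12.9 CPM in the WT libraries (-0.72 ± 0.51, edgeR adjusted p = 0.499). WT 1 was below all 3 PKO libraries. Chek2, the effector kinase of broken ends, was at 4.85, 7.06 and 5.80 CPM in PKO, against 3.31, 13.2 and 9.36 CPM in WT. Atr, the sensor of stalled forks, had steps of 0.91 and 0.72, at 20.3, 22.0 and 14.6 CPM in PKO and 16.2, 30.7 and 26.9 CPM in WT (-0.38 ± 0.27, edgeR adjusted p = 0.506). Atm, the sensor of broken ends, had steps of 0.021 and 0.12. Atm was at 45.6, 63.2 and 27.8 CPM in PKO, against 48.6, 49.3 and 52.9 CPM in WT, so the highest and the lowest library were both PKO (-0.14 ± 0.27, edgeR adjusted p = 0.81).

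The stromal markers can be set beside the repair genes library by library. Over the PKO libraries the median of the 37 genes lay at -0.42, -0.48 and -0.62 against the WT average, where the stromal median lay at 0.71, 4.17 and 4.22. Over the WT libraries it lay at -0.705, 0.369 and 0.327, where the stromal median lay at 0.058, -0.23 and 0.21. The part of these markers in the differences was not tested.

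The other genes of DNA repair were described in the same way. Of 34 further homologous recombination and Fanconi genes, all tested, edgeR called 0. At an unadjusted p under 0.05, 6 of them were lower and 0 higher, against 6.35% and 10.2% of all genes tested. Their median log2 fold change was -0.43. WT 2 and WT 3 were highest in 23, against 20.4% of all genes. Both were at least 2-fold above WT 1 in 10, against 4.71% of all genes. The genes with the smallest p were Gen1, a nuclease that resolves joined molecules, at 2.72, 3.07 and 4.52 CPM in PKO and 2.84, 14.3 and 14.2 CPM in WT, and Wrn, the Werner syndrome helicase, at 13.0, 13.1 and 9.65 CPM in PKO and 14.4, 19.8 and 17.6 CPM in WT. Of 24 checkpoint and break signalling genes, 0 were called. At an unadjusted p under 0.05 in edgeR, 3 were lower and 0 higher, against the same 6.35% and 10.2% of all genes. The median was -0.23, and 14 had WT 2 and WT 3 highest, against 20.4% of all genes. In 4 both were at least 2-fold above WT 1, against 4.71% of all genes. Mad2l2 (-0.48 ± 0.17) and Hus1 (-0.47 ± 0.18), a clamp subunit of the checkpoint, had the smallest p there. In both every PKO library was below every WT library, an order found in 7 of the 24 genes, against 9.7% of all genes tested.

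End joining, which needs no sister chromatid, and excision repair were next. Of 17 end joining genes edgeR called 0 (3 lower and 1 higher at an unadjusted p under 0.05) and DESeq2 called 1 lower. Over all genes tested, edgeR had 6.35% lower and 10.2% higher at that p, and DESeq2 called 1.12% lower. The median was -0.19, and 9 had WT 2 and WT 3 highest, against 20.4% of all genes. In 1 gene both were at least 2-fold above WT 1, against 4.71% of all genes. That gene was Polq, the polymerase of alternative end joining, at 2.08, 2.33 and 3.03 CPM in PKO and 1.95, 10.6 and 10.1 CPM in WT. The DESeq2 call was Parp1, the sensor of nicked DNA, at 95.6, 83.7 and 84.5 CPM in PKO and 106, 129 and 138 CPM in WT (edgeR log2 fold change -0.50 ± 0.14, adjusted p = 0.19, DESeq2 adjusted p = 0.0471). Of 32 mismatch and excision repair genes 0 were called. At an unadjusted p under 0.05 in edgeR, 1 was lower and 0 higher, against 6.35% and 10.2% of all genes. The median was -0.22, and 18 had WT 2 and WT 3 highest, against 20.4% of all genes. In 4 both were at least 2-fold above WT 1, against 4.71% of all genes. Mutyh (-1.15 ± 0.42) and Smug1 (-0.25 ± 0.11), both glycosylase genes of base excision repair, had the smallest p in that list. These lists were compared by counts only, and the differences between them were not tested.

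The E2F-type letters can be set beside the steps. Of the 16 genes with a window and WT 2 and WT 3 at least 2-fold above WT 1 (Rad51b among them), 7 held an E2F-type match: Bard1, Brca2, Chek1, Chek2, Fancb, Fancg and Rad51ap1. Of the other 13 genes with a window, 3 did: Fancm, Rad51c and Rmi1. In Chek1 the matches to TTTGGCGG and TTCCCGCC overlap, 39 to 49 bases after the transcript start. In Rad51c the overlapping matches to TTCCCGCC and TTTCCCGC lie across the start itself, and in Bard1 the match lies 209 bases before it. Several genes with large steps, such as Brca1, Brip1, Fanci, Dna2 and Eme1, held none of the 4 E2F-type strings in the window. Exo1, Fancd2 and Rad54b, also with large steps, had no window. Some windows, among them those of Slx4, Fancl and Fancc, lie wholly within the gene span of the count table. A missing match there says little about a promoter at the start of that span.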

How the data were processed

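Per the series text and the submitters' processing notes, TopHat2 mapped paired reads to GRCm38 (mm10), and HTSeq 0.6.1 gave the counts. The strand setting and annotation release were not given in the sources used here. In all, 18 of the 38 genes share exon bases with another gene in GENCODE M21. The deposited counts are whole reads per gene. FPKM was computed by the authors from those counts. The deposited normalized signal, counts over a library factor, was not used. The log2 fold change and p-value columns are the authors' test in DESeq2 or edgeR (both are named), used only where credited to the authors' deposited table.

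The test was edgeR 4.0.16 (R 4.3.3) on counts: filterByExpr (14025 genes), TMM factors, a quasi-likelihood fit (robust) on genotype alone, and Benjamini-Hochberg adjustment over all genes tested at 0.05. CPM uses TMM factors, and log2 CPM a prior count of 2. SEs come from the fold change and its F statistic. Alternatives were DESeq2 1.42.0, limma-voom (limma 3.58.1), other factors and filters, a replicate block, the cycling index as covariate, and each library left out. Deviations of same-numbered libraries from their group means correlated at 0.103, -0.025 and 0.129, and those of differently numbered ones at -0.207 to 0.122. With 3 libraries per group this cannot show whether equal numbers mark pairs.

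The genes, lists and tests were chosen with earlier results of these data known. Values in every library are given for genes whose groups did not overlap, the 4 with the largest and the 4 with the smallest steps, Brca1, Brca2, Rad51c, Fancd2, Atm, Atr and Chek1, and, chosen after seeing values, others beside them. In the other lists the 2 genes with the smallest p are named. Of the list symbols, 3 matched no single gene: Claspn (checkpoint list), Paxx (end joining list) and Cd3e (leukocyte list). Claspn, as written in the list, is not a current gene symbol, so its gene is missing from the checkpoint counts and median.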

Additional observations from a re-analysis of the deposited data

How the results depend on the processing

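The number of repair genes called at an adjusted p of 0.05 was 0 under every alternative except leaving out WT 1, and ran from 0 to 13 with single libraries left out. Repair genes lower at an unadjusted p under 0.05 in edgeR numbered 13 of the 37, against 6.35% of all genes tested. The number was 1 with the cycling index as covariate, against 4.19% of all genes. It was 3 with limma-voom, 3 with the replicate block, and 1 to 24 with single libraries left out. For these settings no share of all genes at that p is given, so the counts cannot be read as particular to the repair genes. The replicate block changed no call of a repair gene. Over all genes edgeR called 0, but 659 higher and 78 lower without PKO 1, 517 and 483 without WT 1, and 1 higher with the block; DESeq2 called 667 higher and 157 lower. The median log2 fold change of -0.62 was -0.057 with the index as covariate and ran from -0.94 to -0.44 with single libraries left out. With the index, the medians of the other lists were -0.094 (homologous recombination and Fanconi), -0.027 (checkpoint), 0.007 (end joining) and -0.11 (mismatch and excision repair, -0.22 without it). The count of 31 genes following the index was 30 to 31 under other scalings, prior counts or index lists and 9 to 32 with single libraries left out: it was 9 without WT 2 or WT 3, where the 2 libraries with the highest index were PKO 3 and the remaining one of them. The direction turned with the index as covariate in 13 of the 37 genes. Alternatives were followed gene by gene for 14 genes, of which Brca1 (0.16), Chek1 (0.32) and Top3a (-0.057) turned with the index. It also turned for Mus81 with library size only (0.011), and for Top3a without a filter (-0.001), with limma-voom (-0.013) and with the replicate block (-0.005). With single libraries left out, Atm ran from -0.45 to 0.11, Mus81 from -0.11 to 0.063, and Top3a from -0.097 to 0.15. The causes were not tested. Library size alone moved the median of all genes to 0.043. Counts of 17 to 52 per library limit the precision for Rad51c.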

Other observations

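Levels in the low-cycling libraries can be read against WT 1 alone, as values with no test. The cycling index of PKO 1 to PKO 3 lay 0.40, 0.39 and 0.73 log2 units above that of WT 1. Every PKO library was above WT 1 in 15 of these genes. Among them were Brca1 (by 0.90, 0.68 and 0.84 in PKO 1 to PKO 3), Chek1 (by 0.52, 0.48 and 1.22) and Chek2 (by 0.54, 1.07 and 0.79). Over all genes tested, WT 1 was the lowest of the 6 libraries in 16.7%. Below WT 1 in each PKO library were Rad51c (-1.11, -1.36 and -0.62), Xrcc2 (-0.13, -0.52 and -0.54), Xrcc3 (-0.26, -0.13 and -0.37) and Slx4 (-0.25, -0.26 and -0.57). These are the same genes in which every PKO library was below every WT library, so their place below WT 1 follows from that order.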
